A study of Homo sapiens with 2 samples.

Results

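Solute carriers (SLC) are a large class of membrane proteins that move nutrients, ions and metabolites across the cell surface and organelle membranes. The genes described here were those whose symbol in the platform annotation starts with SLC and a digit, or with SLCO, antisense symbols left out. The rule itself uses no measured value. The rule found 27 of 13763 named genes. By RefSeq biotype and gene name, 22 of them encode carriers or carrier subunits. The other 5 are SLC2A4RG, a zinc finger transcription factor named after the GLUT4 gene it binds, the non-coding RNAs SLC2A1-DT, SLC20A1-DT and SLC9A3-OT1, and the pseudogene SLC25A51P4. The RefSeq table holds 397 protein-coding carrier genes with SLC symbols, so the 22 are a small and uneven sample of the class. The classical carriers of glucose (SLC2A1), neutral amino acids (SLC7A5), cystine (SLC7A11), lactate (SLC16A1) and zinc (the SLC30 and SLC39 families), and the SLCO family, are not analysed here.

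S2-013 is a cell line from pancreatic cancer, and its total RNA was measured on Affymetrix whole-transcript arrays. The treated sample was HOXB7-knockdown cells that carried a rescue-HOXB7 plasmid and received a MEK inhibitor. The control was the same HOXB7-knockdown, HOXB7-rescued cells with no inhibitor, so both groups share the knockdown and the plasmid. With 1 array per group there is no replicate error, no test was possible and no p-value exists. Cells that received the inhibitor are called treated below, and the others untreated. No source used here gives the inhibitor's name, dose or exposure time. The design text places the arrays in a search for genes and pathways under HOXB7 and MEK.

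SLC families are numbered by shared sequence, and members of a family often carry related substrates. Families SLC1, SLC3, SLC7 and SLC38 are the best known for amino acids, SLC2 for glucose, SLC30 and SLC39 for zinc, and SLC25 for exchange across the inner mitochondrial membrane. Many carriers were first named by sequence alone and received SLC symbols later. That is the case for most of the genes here: 10 of the 22 carriers have a former MFSD name (major facilitator superfamily domain), and SLC66A1, SLC66A2 and SLC66A3 were called PQLC2, PQLC1 and PQLC3 after their PQ-loop motif. For many of them the substrate is not settled. MEK is the kinase that activates ERK, and ERK signalling is known in pancreatic cancer cells for its effect on nutrient uptake and lysosome activity.

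The promoters of the carriers with the 2 highest differences (SLC66A3 and SLC9D1) and of the carrier with the lowest (SLC71A1) are shown, since the differences below turn on these genes. Each is the 250 bases upstream of the RefSeq start in GRCh38.p14, all on the plus strand, printed 5′ to 3′. Capitals mark the GC box GGGCGG or its reverse complement CCGCCC, overlapping copies included. The windows are chr2:11155217-11155466 (SLC66A3), chr13:113490771-113491020 (SLC9D1) and chr1:100037845-100038094 (SLC71A1).
SLC66A3: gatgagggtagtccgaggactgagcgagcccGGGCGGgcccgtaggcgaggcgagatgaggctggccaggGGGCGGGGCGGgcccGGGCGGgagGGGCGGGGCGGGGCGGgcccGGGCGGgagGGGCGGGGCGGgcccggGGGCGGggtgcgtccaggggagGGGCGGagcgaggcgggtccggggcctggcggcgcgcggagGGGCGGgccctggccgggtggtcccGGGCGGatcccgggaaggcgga
SLC9D1: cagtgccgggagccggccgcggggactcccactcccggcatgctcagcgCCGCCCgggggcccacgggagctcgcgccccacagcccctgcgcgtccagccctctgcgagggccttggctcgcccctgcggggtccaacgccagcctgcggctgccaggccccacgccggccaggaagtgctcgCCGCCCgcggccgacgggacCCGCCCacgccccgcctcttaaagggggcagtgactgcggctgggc
SLC71A1: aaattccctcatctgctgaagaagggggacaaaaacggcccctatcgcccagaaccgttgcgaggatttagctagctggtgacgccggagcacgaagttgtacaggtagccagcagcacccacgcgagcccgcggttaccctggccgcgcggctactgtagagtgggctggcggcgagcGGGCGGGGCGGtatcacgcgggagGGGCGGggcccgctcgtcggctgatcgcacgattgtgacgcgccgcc

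The SLC66A3 window held 14 GC boxes and was 84.4% G and C. Windows with at least as many copies made up 0.0293% of 27305 promoters, and 42.3% of all windows held at least 1. SLC9D1 and SLC71A1 held 3 each, a number reached by 14% of windows. The GC box was searched for after the SLC66A3 window had been read, and it is a description of letters, not of binding. Of the 27 genes 20 had a promoter in the table, and their windows had a median of 71.8% G and C, against 58% over all promoters. A GC box stood in 17 of these 20 windows. The comparison is with every promoter listed, non-coding genes included, and was not matched to the members by kind of gene or level. SLC2A4RG held 10 copies, a number reached by 0.161% of windows. The 4 other motifs, searched on both strands, were the E-box core CACGTG, which lysosomal gene promoters often carry, the AP-1 core TGACTCA, the ETS core CCGGAAG and the amino acid response core TGATGCAA. CACGTG stands in 6.49% of all promoters, TGACTCA in 4.16%, CCGGAAG in 8.82% and TGATGCAA in 0.82%. None of these exact letters was found in the SLC66A3, SLC9D1 or SLC71A1 windows. Variants of the motifs were not searched for, so a site with other letters is not excluded. Among the other members SLC60A2 held CACGTG and CCGGAAG, and SLC75A1 held CCGGAAG. For genes with several starts the first listed was used.

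The deposited values are on a log2 scale, inferred from their range, so a difference of 1 is 2-fold. A gene counted as above the floor when either array reached 4.78, the median level of all named genes, and 7164 genes did. The arrays had medians of 3.46 in treated cells and 3.49 in untreated cells over all probe sets. HOXB7 read 5.85 in treated cells and 5.84 in untreated cells. All 11 ERK feedback genes that reached the floor were lower with the inhibitor, 9 of them by at least 2-fold. Over all genes above the floor 46.1% were lower and 1.05% by at least 2-fold. The lowest of the list were EGR1 (-2.94), SPRY4 (-2.15), DUSP4 (-1.88) and ETV4 (-1.75), which encode transcription factors (EGR1, ETV4) and inhibitors of the pathway (SPRY4, DUSP4). ETV1, ETV4, ETV5, SPRY2 and SPRY4 reached the floor only in untreated cells, so they could enter the count only as lower. All 7 epithelial markers named on the array were above the floor, among them KRT18 and EPCAM. Neither of the 2 fibroblast markers was, and 2 of 4 leukocyte and 2 of 4 endothelial markers were. For 161 genes with more than 1 probe set above the floor, the differences of the 2 brightest disagreed by a median of 0.13, and by 0.55 at the 95th percentile. Every SLC gene had 1 probe set, so this disagreement is the nearest available gauge of probe error, and it leaves out the variation between cultures.

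Of the 27 SLC genes 19 were above the floor, each of them in both arrays. With the inhibitor 1 gene was at least 2-fold higher (SLC66A3) and none was 2-fold lower. Over all named genes above the floor, 0.628% were 2-fold higher and 1.05% lower. At 1.5-fold, a log2 difference of 0.585, 2 SLC genes were higher (SLC66A3 and SLC9D1) and none lower, against 4.62% higher and 3.6% lower over all genes. These are counts of 2 or fewer genes, too small to be set apart from the background. The single 2-fold call rests on the scaling, since SLC66A3 read 0.99 after subtraction of the median difference and 0.97 after subtraction of a loess trend. The call of SLC9D1 is as near its threshold: it read 0.581 and 0.569 under the same scalings, short of 0.585. In these bulk samples, fewer cells expressing a gene and less RNA per cell cannot be told apart.

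**Figure D1:**
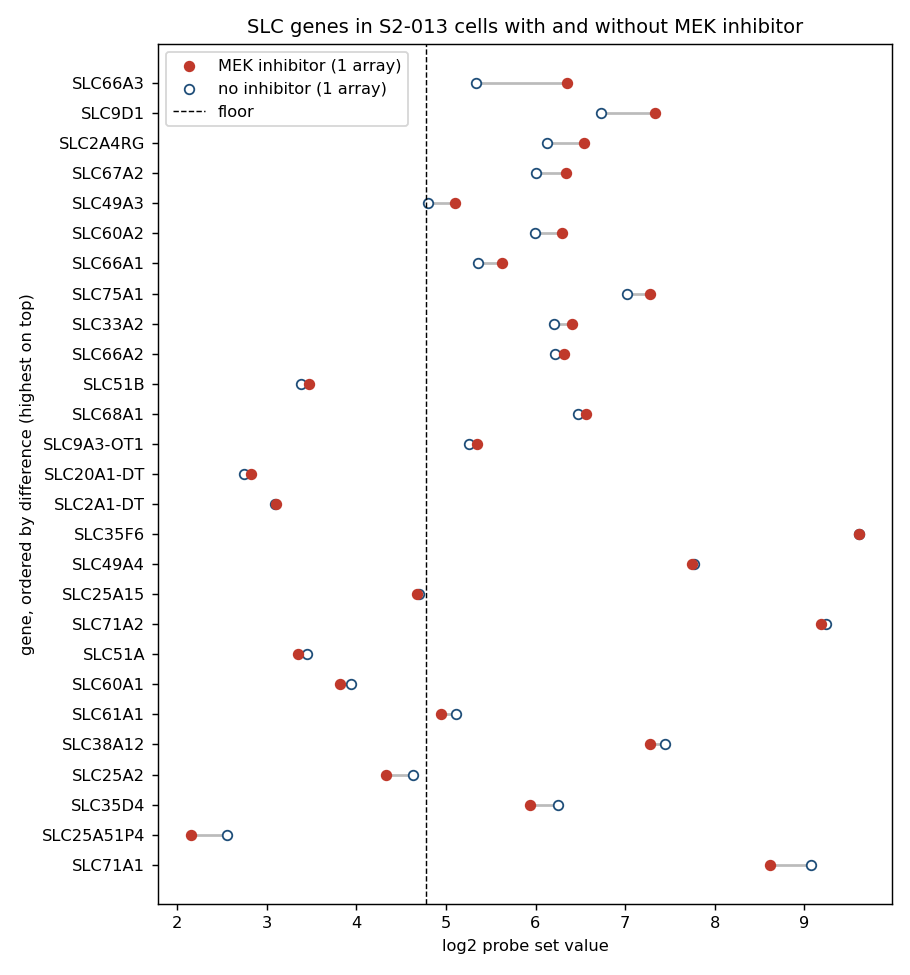
Log2 probe set values of the 27 SLC genes with the MEK inhibitor (filled red) and without it (open blue), 1 array each, ordered from the highest difference on top to the lowest, with the floor of 4.78 as a dashed line. SLC66A3 and SLC9D1 have the widest gaps to the right, and SLC71A1 at the bottom reads lower with the inhibitor.

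The PQ-loop family SLC66 had 3 members, all higher with the inhibitor, by unequal amounts. Over all genes above the floor 53.9% were higher, and 3 genes are too few to be set apart from that share. SLC66A3 read 6.36 in treated cells and 5.34 in untreated cells, a difference of 1.02 or 2.03-fold. That difference ranked 41 of 7164 genes from the top and was the only one of an SLC gene beyond the central 95% of all genes, which ran from -0.69 to 0.72. SLC66A1, the lysosomal exporter of lysine and arginine, read 5.63 in treated cells and 5.36 in untreated cells, a difference of 0.27. SLC66A2 read 6.32 in treated cells and 6.21 in untreated cells. Its difference of 0.10 is below the median disagreement between probe sets of a gene, and that of SLC66A1 lies within the 95th percentile. The substrate of SLC66A3 is not named here.

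SLC38A12, formerly TMEM104, is numbered with the sodium-coupled neutral amino acid carriers and had the opposite sign to the SLC66 genes. It read 7.28 in treated cells and 7.44 in untreated cells, a difference of -0.17. The 4 members of amino acid families therefore had a median difference of 0.18, 3 of them higher and 1 lower. Over all genes above the floor 53.9% were higher. The grouping is by family number, not by a measured substrate, so it gives no result for amino acid transport. Without SLC66A3 the median of the remaining 3 was 0.10. With a floor at the 75th percentile SLC38A12 alone remained, so the value turned to -0.17.

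Among ion exchangers SLC9D1, formerly TMCO3 and numbered beside the sodium-proton exchangers, read 7.34 in treated cells and 6.73 in untreated cells. Its difference of 0.61 (1.52-fold) ranked 303 of 7164 and lies just past the 0.55 that probe sets of a gene reach at the 95th percentile. Apart from SLC66A3 and SLC9D1, each SLC gene lay inside that range in either direction. The neighbouring non-coding RNA of the exchanger SLC9A3, SLC9A3-OT1, read 5.34 in treated cells and 5.26 in untreated cells.

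The sugar families were represented by a carrier and a regulator above the floor. SLC60A2, formerly MFSD4B and described in rat kidney as the sodium-glucose transporter NaGLT1, read 6.29 in treated cells and 6.0 in untreated cells, a difference of 0.30. SLC2A4RG, which encodes the GLUT4 gene regulator, read 6.54 in treated cells and 6.12 in untreated cells. Its difference of 0.42 was the third highest of the SLC genes and is not a measure of any glucose carrier. The paralogue SLC60A1 lay below the floor, at 3.82 in treated cells and 3.95 in untreated cells. So did SLC2A1-DT, the divergent transcript beside the GLUT1 gene, which read 3.11 in treated cells and 3.10 in untreated cells.

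The carriers numbered with nucleotide sugar and acetyl-CoA transporters had no shared direction. SLC35D4, formerly TMEM241, read 5.93 in treated cells and 6.25 in untreated cells, a difference of -0.32 and the second lowest above the floor. SLC35F6, which binds the mitochondrial adenine nucleotide translocator ANT2, read 9.61 in treated cells and 9.60 in untreated cells. That is the smallest difference of the 19 genes, and its sign turned when the median difference was subtracted. SLC33A2, formerly MFSD3 and numbered with the acetyl-CoA transporter SLC33A1, read 6.41 in treated cells and 6.20 in untreated cells.

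Both members of family SLC49 were above the floor. SLC49A4, a lysosomal membrane protein known as DIRC2 from a chromosome break in familial renal cancer, read 7.74 in treated cells and 7.77 in untreated cells. SLC49A3, formerly MFSD7, read 5.10 in treated cells and 4.80 in untreated cells, a difference of 0.30. Without the inhibitor SLC49A3 was the member nearest to the floor from above, and SLC25A15 was the nearest below.

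The carriers that were grouped under no substrate class held the lowest difference. SLC71A1, formerly MFSD14A and needed for sperm head formation in mice, read 8.61 in treated cells and 9.07 in untreated cells. This difference of -0.46, 1.37-fold lower, ranked 441 of 7164 from the bottom. Its paralogue SLC71A2 read 9.19 in treated cells and 9.24 in untreated cells, a difference of -0.05. The gap between the paralogues is within the 0.55 that probe sets of a gene reach. SLC61A1, formerly MFSD5 and known as a molybdate transporter, read 4.95 in treated cells and 5.11 in untreated cells.

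The other 3 of these carriers were higher with the inhibitor. SLC67A2, formerly MFSD9, read 6.34 in treated cells and 6.0 in untreated cells, a difference of 0.34. SLC75A1, formerly MFSD10 and also called TETRAN, which exports organic anions when expressed in yeast, read 7.27 in treated cells and 7.02 in untreated cells. SLC68A1, formerly MFSD13A, read 6.56 in treated cells and 6.47 in untreated cells. The 9 former MFSD carriers above the floor had a median difference of 0.20, with 6 higher and 3 lower, and none reached 1.5-fold. Over all genes above the floor 53.9% were higher, and 4.62% passed 1.5-fold upwards and 3.6% downwards. Of 6 genes still named MFSD, a set added after the annotated members were known, 3 were above the floor, with differences of 0.42 (MFSD8, a lysosomal protein mutated in a neuronal storage disease), 0.40 (MFSD6) and 0.38 (MFSD11). MFSD1 (-0.03), MFSD2A (-0.28) and MFSD6L (-0.31) lay below the floor and were lower.

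The remaining 8 SLC genes did not reach the floor, and whether their signal was above background is unknown. They include the 3 named symbols of the mitochondrial family SLC25. Of these SLC25A15, the ornithine carrier of the urea cycle, read 4.67 in treated cells and 4.70 in untreated cells. Its paralogue SLC25A2 read 4.33 in treated cells and 4.64 in untreated cells, and the pseudogene SLC25A51P4 read 2.16 in treated cells and 2.56 in untreated cells. SLC51A and SLC51B, both subunits of the bile acid exporter of the ileum, read 3.35 and 3.47 in treated cells, against 3.45 and 3.38 in untreated cells. SLC20A1-DT, beside a phosphate carrier gene, read 2.82 in treated cells and 2.74 in untreated cells. None of the 8 reached 1.5-fold, and 3 were higher and 5 lower. With the floor ignored, 6991 of all 13763 named genes were higher and 6759 lower. Of these 441 passed 1.5-fold upwards and 356 downwards. No named SLC25 gene was therefore above the floor. Members of that family that are not named here were not analysed, so the family as a whole has no result.

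As a set, the 19 genes above the floor had a median difference of 0.10, against 0.03 over all 7164 genes. With the inhibitor 13 of the 19 were higher and 6 lower, against 53.9% higher and 46.1% lower over all genes. With SLC2A4RG and SLC9A3-OT1 left out, 11 of 17 carriers were higher and the median was again 0.10. With the floor ignored, 16 of 27 were higher and 11 lower, with a median of 0.08. Over all 13763 named genes 6991 were then higher and 6759 lower, with a median of 0.01. The middle 50% of the 19 differences ran from -0.04 to 0.30, against -0.15 to 0.22 over all genes, and the median size of a difference was 0.26, against 0.19. With a loess trend subtracted the SLC median was 0.06. Above the 75th percentile floor it was 0.01 over 9 genes, 5 of them higher, against 0.02 over all genes there.

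**Figure D2:**
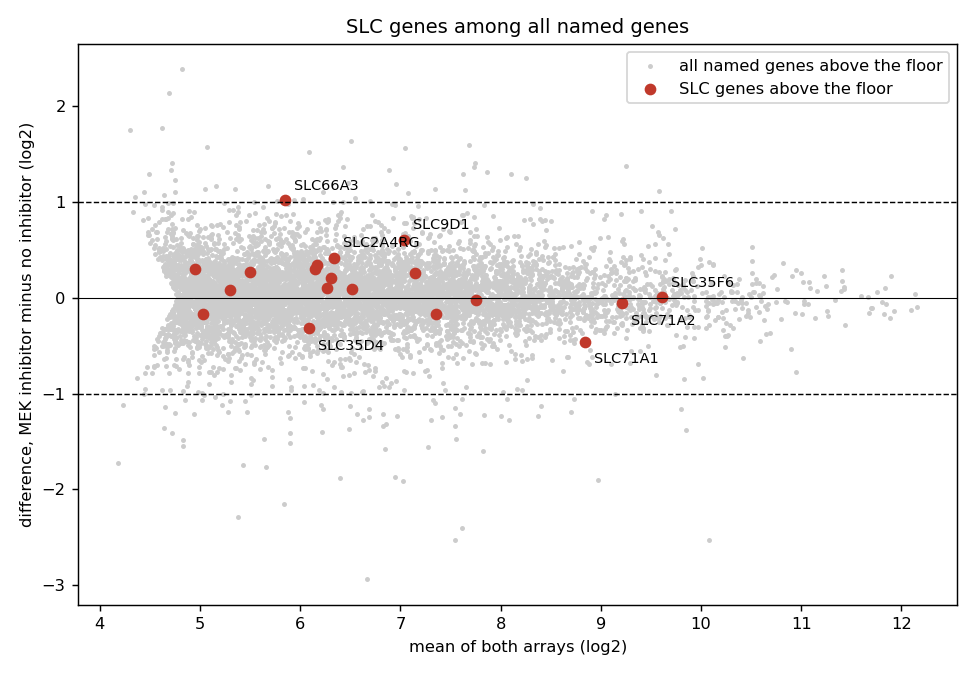
Difference of log2 values, MEK inhibitor minus no inhibitor, against the mean of both arrays for all 7164 named genes above the floor (grey) and the 19 SLC genes (red), with dashed lines at 2-fold. SLC66A3 sits on the upper line at 1.02, and the other 18 lie between -0.46 and 0.61 within the grey cloud.

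Genes that work with solute carriers were read from lists of partners and related metabolism. Among carrier partner proteins 10 were above the floor, with a median difference of -0.06. TXNIP, an arrestin-like protein that lowers glucose uptake by taking GLUT1 off the cell surface, read 6.67 in treated cells and 7.95 in untreated cells, 2.42-fold lower. MPC2, a subunit of the mitochondrial pyruvate carrier, read 8.90 in treated cells and 8.10 in untreated cells, a difference of 0.80. Its partner subunit MPC1 read 7.02 in treated cells and 7.11 in untreated cells, a difference of -0.09. The gene of basigin (BSG), the chaperone of lactate carriers, differed by -0.03, and that of the arrestin-like ARRDC3 by 0.59.

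The 17 amino acid response genes had a median of 0.34, with 11 higher and 6 lower. Of the 17, 3 passed 1.5-fold upwards and none downwards. The lowest were ATF5 (-0.24), PSPH (-0.22) and DDIT4 (-0.22). Over all genes the median was 0.03, 53.9% were higher, and 4.62% passed upwards and 3.6% downwards. ASNS, the asparagine synthetase gene, read 6.44 in treated cells and 5.43 in untreated cells, a difference of 1.02. DDIT3, a stress transcription factor, and the lipoprotein receptor gene VLDLR differed by 0.65 and 0.61. ATF4, the factor of this response that is controlled mostly at translation, differed by 0.01. Amino acid sensing genes of the lysosome had a median of 0.10 over 14 genes, none past 1.5-fold, and the highest were the Rag GTPase genes RRAGD (0.54) and RRAGC (0.49).

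The remaining lists concern the substrates themselves. Over all genes above the floor the median was 0.03, and 4.62% passed 1.5-fold upwards and 3.6% downwards. Glycolytic enzymes had a median of 0.07 over 9 genes, none past 1.5-fold, with PGK1 highest at 0.36 and HK2 lowest at -0.10. Glutathione and cystine genes had a median of 0.10 over 9 genes, 6 of them higher and 3 lower. The highest were TXNRD1, the thioredoxin reductase gene, at 1.25 and the sulfiredoxin gene SRXN1 at 0.65. GPX1 was the lowest at -0.22. Zinc binding genes had a median of 0.07 over 5, and the metallothioneins were split, with MT1X at -0.76 and MT2A at 0.52. Metallothionein genes are near-identical, so probe sets may share signal between them.

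Iron handling genes had a median of 0.20 over 6 genes, with the heme oxygenase gene HMOX1 at 0.80, the iron reductase gene CYBRD1 at 0.39 and PCBP2, whose protein is an iron chaperone, at -0.35. Of 15 genes listed as ATP-driven ion pumps only 3 were named, all above the floor. They were ATP13A1 (0.31), ATP13A2 (-0.03) and ATP13A3 (-0.39). As ATPases of the ATP13A family alone, they give no result for ion pumps as a class. No listed ABC transporter was named, and none is analysed here.

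**Figure D3:**
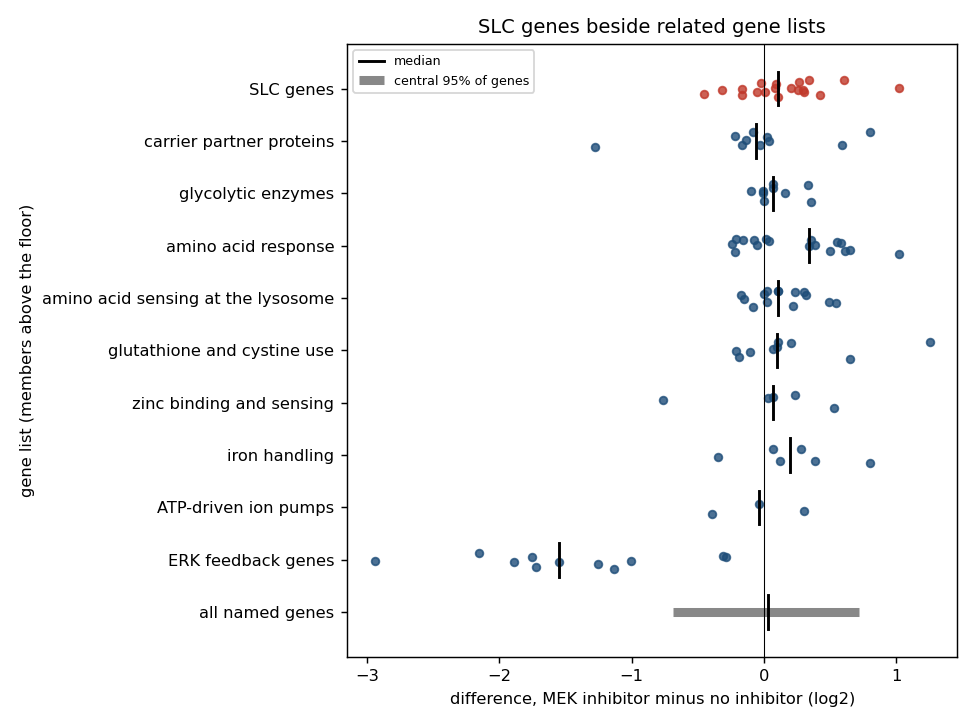
Differences of log2 values, MEK inhibitor minus no inhibitor, for the 19 SLC genes (red) and the members above the floor of 9 related lists (blue), each point a gene and each black line a median, with the central 95% of all named genes as a grey bar (vertical scatter within a list is only for legibility). The SLC median of 0.10 lies near the all-gene median of 0.03, while the ERK feedback genes lie far to the left, with a median of -1.55. Some ERK feedback genes reached the floor only in untreated cells.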

How the data were processed

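Per the submitters' processing notes, the authors used Affymetrix Expression Console version 1.3. The deposited table holds 1 log2 value per probe set and array. The log2 scale is inferred from the values, which run from 1.16 to 13.4, and no source used here gives the summarisation or normalization settings. Per the labels' protocols, 100 ng of RNA per sample was labelled with the GeneChip WT PLUS kit. Samples were grouped by their titles.

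Of 53617 probe sets 16098 had 1 gene symbol, none had several and 37519 are unnamed here. After 1287 small RNA probe sets were set aside, the probe set with the highest mean stood for each of 13763 genes. All 27 SLC genes were found in the RefSeq table by Entrez identifier. Values were used as deposited, and differences are inhibitor minus no inhibitor. The precision is limited by 1 array per group. Every SLC gene is named. Of each list of other genes only some are named, mostly but not only those with the largest differences. The members and lists were chosen with earlier results of these data known. Alternatives were subtraction of the median difference or a loess trend (span 0.3), no floor, a floor at the 75th percentile, averaged probe sets, a 3-fold threshold and omission of the member with the largest difference. The calling step was tested on simulated data with shifts larger than 2-fold, so that test does not gauge calls near a threshold. Python 3.11.15, numpy 2.4.6, pandas 2.3.3, statsmodels 0.14.6 and matplotlib 3.10.9 were used.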

Additional observations from a re-analysis of the deposited data

How the results depend on the processing

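No paired analysis was possible because there is 1 array per group, and leaving out an array was impossible too. The count of 1 SLC gene past 2-fold became 0 with the median difference or the loess trend subtracted, with the 75th percentile floor (6.45, which 9 SLC genes reached) and at 3-fold. The count of 2 past 1.5-fold became 1 under both scalings and with that floor. Both changes under the scalings follow from differences that lie just past the thresholds, and those under the floor from the genes it removes. The SLC median of 0.10 ranged from 0.01, with the 75th percentile floor, to 0.10 and was above 0 in each alternative run. The median of 0.18 over the members of amino acid families read -0.17 with that floor, where SLC38A12 alone remained. The sugar median of 0.36 over 2 genes read 0.15 over 4 with no floor and 0.30 without SLC2A4RG, where SLC60A2 alone remained. No zinc carrier and no SLC25 gene above the floor was there to give a median. Of the 19 single genes none shifted by more than 0.05, and SLC35F6 alone changed sign. Only the scalings could shift a single gene, since each had 1 probe set and a floor changes no value. The small shifts are therefore no measure of error. Without scanner intensities, whether dim genes were above background is unknown.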

Other observations

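SLC25A25-AS1 was the only one of 11 antisense symbols of SLC loci to reach the floor, and it read 3.95 in treated cells and 4.79 in untreated cells. It was therefore above the floor only without the inhibitor, by a narrow margin, and its difference of -0.84 ends in a dim signal. These RNAs were left out of the SLC genes by their symbols, and the gene was picked out after its value was seen.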
